A study of Mus musculus with 4 samples.

Results

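Embryoid bodies treated with all-trans retinoic acid (ATRA) and labelled 0 days were compared with control embryoid bodies, across every gene that could be measured in either. The comparison took the genes at 1 FPKM or more in at least 1 of the 2 libraries, 5500 of the 5885 genes that reached this level in any of the 4 libraries of the study. FPKM is the number of fragments per kilobase of transcript, scaled to the number of mapped fragments in the library. Nearly all of these genes lie on chromosomes 1 and 10 to 18. A few symbols placed on other chromosomes were kept, at most 16 on any of them, and the other genes there were not analysed here.

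Embryoid bodies are clumps of differentiating embryonic stem cells, used as a simple model of the early embryo. All were grown from the mouse line ES-E14TG2a, which is kept with serum and leukemia inhibitory factor (LIF), while the listed embryoid body medium holds serum and no LIF. The treated group received 5 µM ATRA on days 4 and 6 of culture and, once 8 days of embryoid body culture had passed, was transferred to dishes coated with ornithine and laminin. The control received no ATRA. Its culture day is not stated, so ATRA cannot be told apart from culture age. Each group was 1 library of 1 cell line, so no difference has a replicate check, and no test, p-value or SD could be given. The ATRA libraries labelled 6 and 10 days are used below only to show where the level of a gene stood later. The labels do not say what the days are counted from.

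ATRA is the active form of vitamin A. It enters cells, binds nuclear receptors that sit on DNA, and turns those receptors from repressors into activators of nearby genes. In embryonic stem cells it ends self-renewal and pushes the cells towards neural and extraembryonic fates, and with the end of self-renewal the signalling, growth and metabolic programmes of the stem cell are known to be rebuilt. The Hox, retinoid and pluripotency genes that open this response were set aside here, and the rest of the transcriptome is described.

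Differences are on the log2(FPKM + 1) scale, 0 days minus control, and understate the change of genes with low levels. A gene counts as higher or lower from 2-fold upwards, which is 1 on this scale. There were 720 higher genes (13.1% of those tested) and 752 lower genes (13.7%), and 192 (3.49%) and 153 (2.78%) differed 4-fold. The median over all tested genes was -0.09. Of genes other than small RNAs, 65 went from below 0.5 FPKM to 5 FPKM or more, and 17 went the other way.

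Depth was estimated from low values of genes with 1 annotated transcript. The median of FPKM times length in kb, among values between 0.02 and 0.05, was taken as 1 fragment. That window was preset and bounds the estimate. The libraries came to about 24500000 (control) and 26400000 (0 days) fragments. This gives a counting error of 9.03% and 8.71% at 5 FPKM on a 1 kb transcript. Levels of 0.122 and 0.114 FPKM on such a transcript, control first, rest on 3 fragments. These errors cover counting only. The difference also moved with the level of a gene. Its median was 0.35 for 1616 genes with a mean under 5 FPKM, -0.01 for 1971 genes between 5 and 20 FPKM, -0.37 for 1464 genes between 20 and 100 FPKM, and -0.64 for 385 genes at 100 FPKM or more. Of the most abundant class 24.2% were lower and 2.86% higher, so lists of abundant genes are set beside it below. Of the class under 5 FPKM 24.5% were higher and 9.65% lower, so lists of low genes start from a larger share of higher genes. A gene under 1 FPKM in the control passed the filter only through the 0 days library, which favours a call of higher. The reverse holds for genes under 1 FPKM at 0 days. Values given below as less genes of the same level have the median of their class taken off. The ribosomal RNA precursor Rn45s stood at 543 and 1191 FPKM, control first as in all pairs below, and its part in the differences was not tested. In these bulk samples, fewer cells of a type and less RNA per cell cannot be told apart.

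**Figure D1:**
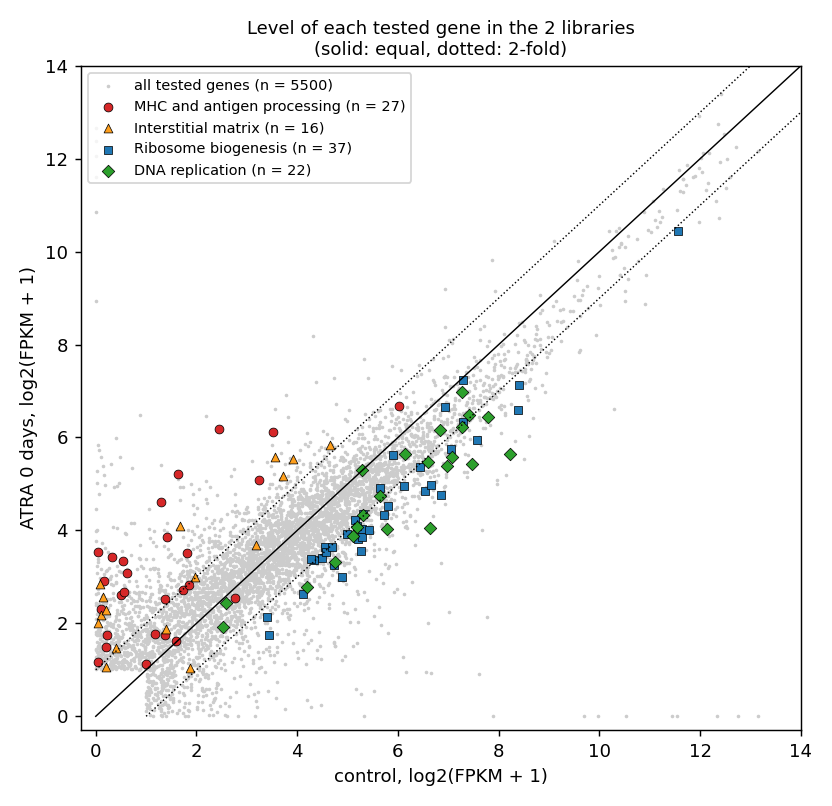
Level of each of the 5500 tested genes in the control (x axis) and at ATRA 0 days (y axis), both as log2(FPKM + 1), with 4 gene lists coloured; 2 genes lie outside the axes. Above the line of equality lie 26 of the 27 antigen presentation genes and 15 of the 16 interstitial matrix genes, and below it all 37 ribosome biogenesis genes.

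Promoter sequences are shown first for antigen presentation, whose genes were mostly higher, and for mitosis and ribosome biogenesis, whose genes mostly stood under the control, because short motifs recur in their letters. The windows come from RefSeq on GRCm38.p6, with 250 bases before and 50 after the start of a gene, and only bases before the start are printed, 5′ to 3′ on the strand of the gene. The genes shown have the largest differences among those with the motifs before the start, and genes without them were passed over. The sequences are therefore examples and do not show how common a motif is. Capitals mark CCAAT or its reverse complement ATTGG, a motif bound by the factor NF-Y, in the first pair. H2-Q4 and H2-Q7 encode class I molecules of the major histocompatibility complex (MHC), and lie at chr17:35379497-35379616 and chr17:35439035-35439154, both on the plus strand.
H2-Q4: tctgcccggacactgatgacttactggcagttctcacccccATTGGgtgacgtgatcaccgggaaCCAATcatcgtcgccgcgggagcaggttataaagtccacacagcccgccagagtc
H2-Q7: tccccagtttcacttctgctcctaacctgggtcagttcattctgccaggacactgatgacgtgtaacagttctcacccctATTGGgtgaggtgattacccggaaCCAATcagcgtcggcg
In the next pair, of mitosis genes, capitals mark CCAAT and TTTGAA, the core of the cell cycle homology element, on either strand. In Cenpw the motifs overlap. Espl1 encodes separase, the protease that splits sister chromatids (chr15:102296173-102296292, plus strand), and Cenpw a centromere protein (chr10:30200541-30200660, minus strand).
Espl1: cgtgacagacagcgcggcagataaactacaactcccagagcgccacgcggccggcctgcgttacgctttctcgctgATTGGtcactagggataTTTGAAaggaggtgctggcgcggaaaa
Cenpw: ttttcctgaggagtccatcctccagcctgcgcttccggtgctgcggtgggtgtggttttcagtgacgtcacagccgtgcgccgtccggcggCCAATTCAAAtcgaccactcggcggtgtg
Imp4, a processing factor of ribosomal RNA, holds CACGTG, the palindromic E-box read by MYC and related factors (chr1:34439579-34439828, plus strand).
Imp4: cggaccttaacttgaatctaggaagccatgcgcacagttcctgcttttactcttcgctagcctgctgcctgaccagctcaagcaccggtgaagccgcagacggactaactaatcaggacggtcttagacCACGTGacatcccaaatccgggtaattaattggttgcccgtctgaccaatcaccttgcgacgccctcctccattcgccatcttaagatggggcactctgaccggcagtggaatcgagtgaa

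CCAAT was found on either strand in 84.2% of 19 windows of tested MHC and antigen processing genes, 73.1% of 26 windows of mitosis genes and 71.4% of 21 windows of DNA replication genes. It was in 37.5% of the 4994 windows of all tested genes and 37.4% of all 32851 windows in the table. TTTGAA was in 50% of the mitosis windows, against 11.1% of the windows of tested genes and 17.9% of all windows. CACGTG was in 29.4% of 34 ribosome biogenesis windows, against 10.6% for tested genes and 7.15% for all windows. Imp4 was the only lower gene of that list whose window held CACGTG before the start, with chromosome 18 left out. GAAANNGAA, a core of the interferon response element, was in 15.8% of the MHC windows, against 6.75% and 8.56%. TATAAA was in 31.6% of the MHC windows, against 6.81% and 13.6%. The direct repeat 5, the arrangement that retinoic acid receptors are best known to bind, was in 0.85% of the windows of higher genes and 1.18% of the windows of lower genes, against 0.601% for tested genes and 0.861% for all windows. Windows of neighbouring class I genes are copies of each other in part, and a match is not a bound site.

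Stem cell signalling was examined first, since LIF and FGF act on these cells in opposite ways: LIF holds them undifferentiated through gp130 and STAT3, and FGF primes them for differentiation through the kinase ERK. Of 12 tested ERK feedback targets 6 were lower and 2 higher, with a median of -0.84. Etv4, an ETS transcription factor switched on by ERK, stood at 93.1 FPKM in the control, 0.949 FPKM at 0 days, 7.61 FPKM at 6 days and 6.08 FPKM at 10 days (difference -5.59). Its relative Etv5 was at 114, 8.89, 18.8 and 15.1 FPKM (difference -3.54). Spry4, which encodes a Sprouty inhibitor of the pathway, was at 67.4, 1.42, 4.09 and 4.38 FPKM. All 3 had their lowest level at 0 days and stayed far under the control later. Spry2 (120 and 29.4 FPKM), Etv1 (10.1 and 2.33 FPKM) and the ERK phosphatase Dusp6 (85.5 and 35.5 FPKM) were the other lower targets. The higher targets were Ier3, an early response gene, at 3.42 and 15.3 FPKM, and Phlda1 at 15.5 and 44.9 FPKM. Of the FGF ligands tested, Fgf11 and Fgf9 were higher (differences 1.38 and 1.09) and Fgf17 lower (-1.28).

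Of 13 LIF pathway genes 4 were lower and none higher. Socs2, a feedback inhibitor of cytokine receptors, had by far the largest difference, at 35.9 FPKM in the control, 3.06 FPKM at 0 days, 9.56 FPKM at 6 days and 5.56 FPKM at 10 days (-3.18). Socs3, the direct STAT3 target that closes the same loop, was at 31.9, 14.6, 12.8 and 31.9 FPKM, and the kinase gene Pim3 at 97.2 and 47.7 FPKM. Osm, a cytokine of the LIF family, was the fourth (-1.05). The receptor and the transducers differed less than 2-fold. Lifr, the LIF receptor, was at 21.4 and 11.2 FPKM, Il6st, which encodes gp130, at 9.98 and 12.4 FPKM, and Stat3 at 22.9 and 33.5 FPKM. Under median-ratio scaling 2 of the 13 were lower, and under upper-quartile scaling 1 was lower and 1 higher.

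The TGF-beta family, which patterns the early embryo through Nodal, activin and BMP ligands, held genes of both directions. Of 27 tested genes 9 were higher and 5 lower (median 0.66). Inhbb, the beta B subunit of activin and inhibin, was at 21.1 FPKM in the control, 0.186 FPKM at 0 days, 0.644 FPKM at 6 days and 1.63 FPKM at 10 days. Bmp4, a ligand that supports stem cell self-renewal with LIF, was at 51.3, 6.25, 8.77 and 11.2 FPKM. Both ligands were lowest at 0 days. Lefty2, an inhibitor of Nodal, was lower (70.6 and 16 FPKM), while Lefty1, its neighbour in the genome, was higher (14.7 and 38.3 FPKM) and Nodal itself was at 33.7 and 24.7 FPKM. On the higher side were the ligand gene Gdf11 (0.319 and 7.27 FPKM), Bmp1, whose product is a procollagen protease rather than a ligand (1.12 and 5.89 FPKM), Fstl1, a secreted binding protein (7.54 and 43.9 FPKM), and Ltbp1, which tethers latent TGF-beta (0.960 and 5.29 FPKM). Id2, a BMP target that blocks basic helix-loop-helix factors, was at 19.7 FPKM in the control and between 139 and 153 FPKM in the ATRA libraries.

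Wnt signalling differed at both receptors and ligands. Of 7 tested receptor genes 5 were higher and 1 lower (median 1.52), and of 5 ligand genes 2 were higher and 2 lower. Fzd2 was at 0.697 FPKM in the control, 16.9 FPKM at 0 days, 15.9 FPKM at 6 days and 13.9 FPKM at 10 days. Fzd8, by contrast, was at 0.826, 11.9, 2.84 and 2.20 FPKM, highest at 0 days. Fzd7, Fzd6 and Fzd3 were higher by 1.70, 1.52 and 1.52, and Fzd5 went the other way, from 23.6 to 4.31 FPKM. Among ligands Wnt6 (10.9 and 0.312 FPKM) and Wnt10a (2.16 and 0.0941 FPKM) were lower, and Wnt9a (0.732 and 5.27 FPKM) and Wnt5a (0.0494 and 1.77 FPKM), known for signalling without beta-catenin, were higher. Fzd2, Fzd8, Wnt9a and Wnt5a passed the filter only through the 0 days library, which favours a call of higher. Axin2, a general target of the beta-catenin branch, was at 1.30 and 2.21 FPKM. The secreted inhibitors Notum and Sfrp4 were both lower (-1.84 and -1.81).

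**Figure D2:**
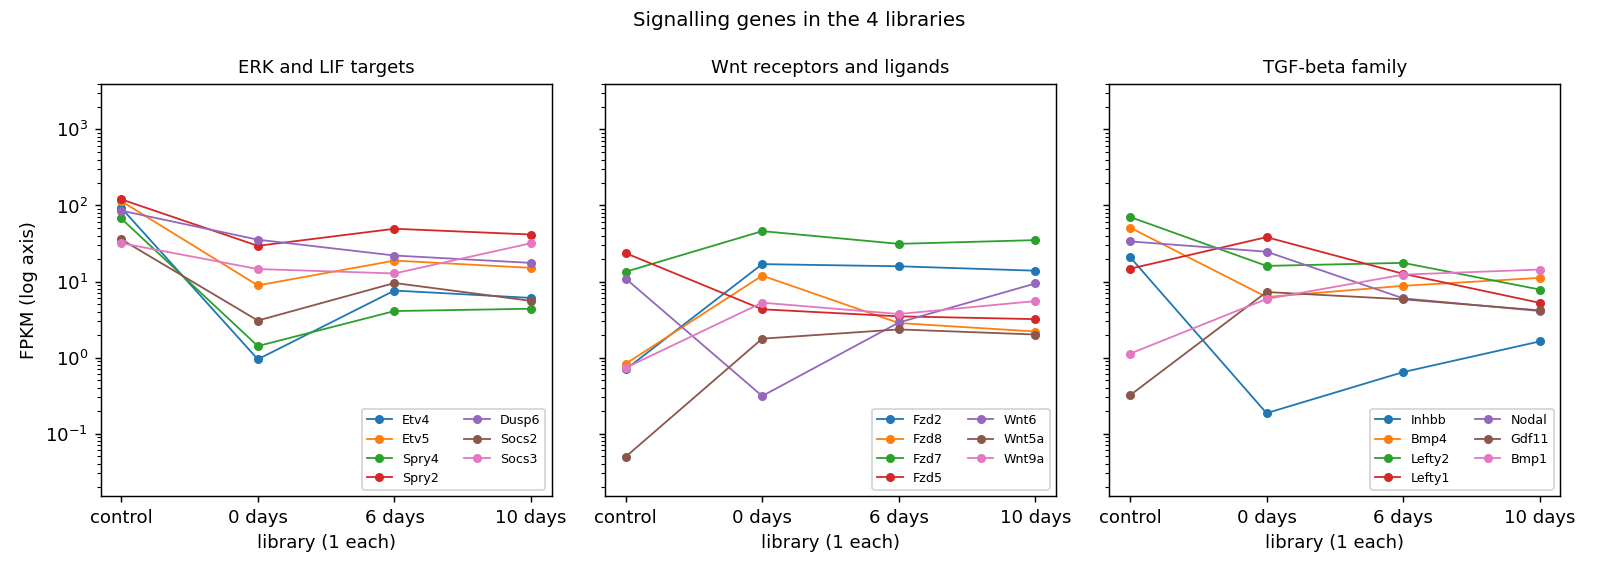
FPKM on a log axis in the 4 libraries for targets of ERK and LIF (left), Wnt receptors and ligands (middle) and TGF-beta family genes (right). Etv4, Spry4, Socs2, Wnt6 and Inhbb have their lowest value at 0 days, while Fzd2, Fzd7, Gdf11 and Bmp1 are higher in all 3 ATRA libraries than in the control.

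Hedgehog and Notch are signals between neighbouring cells that pattern the neural tube and somites. Of 9 hedgehog genes 4 were higher and none lower. Gas1, a membrane protein that helps hedgehog ligands bind their receptor, had the largest gain of the genes named here, at 0.843 FPKM in the control, 88.7 FPKM at 0 days, 12.1 FPKM at 6 days and 10.7 FPKM at 10 days (5.61). The coreceptor Boc (1.28), the secreted Scube1 (0.0865 and 2.07 FPKM) and the transcription factor Gli3 (0.464 and 3.94 FPKM) were the others. Gas1, Scube1 and Gli3 passed the filter only through the 0 days library, which favours a call of higher. The comparison with genes of the same level gave 3 higher and 1 lower hedgehog gene (median 0.51). Gli1, the usual readout of active signalling, was at 2.80 and 1.30 FPKM, and the receptor gene Ptch1 at 6.12 and 9.10 FPKM. In the Notch list 3 of 11 genes were higher and 3 lower. The noncanonical ligand gene Dlk1 was at 0.238 FPKM in the control and 41.9, 29.9 and 66.8 FPKM in the ATRA libraries, and the receptor gene Notch3 was at 2.07 and 8.99 FPKM. Hes1, the best known Notch target, was lower at 66.3 and 21.6 FPKM, with Notch4 (-1.69) and the glycosyltransferase Mfng (-2.12).

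Binding proteins of insulin-like growth factor, which hold the hormone outside cells, held some of the largest gains. Igfbp4 was at 0.404 FPKM in the control, 47.0 FPKM at 0 days, 59.5 FPKM at 6 days and 104 FPKM at 10 days, and Igfbp5 at 0.117, 35.3, 35.3 and 25.2 FPKM. Igfbp2 was the most abundant, at 121, 587, 131 and 218 FPKM. Igfbp4 and Igfbp5 stayed high in all ATRA libraries, whereas Igfbp2 was highest at 0 days. Igfbp6 was at 1.31 and 1.70 FPKM, short of 2-fold. Of 19 axon guidance genes 7 were higher and 2 lower (median 0.68). Less genes of the same level, 5 were higher and 2 lower (median 0.33). Plxna2, a semaphorin receptor, was at 0.107 and 6.61 FPKM, and the ephrin genes Efnb3, Efna2 and Efna5 were higher by 1.41, 1.39 and 1.22. Ntn1, the attractant netrin 1, was lower at 11.9 and 2.03 FPKM, as was the receptor gene Epha4 at 12.9 and 3.67 FPKM.

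Among transcription factor families outside Hox, Sox genes were mostly higher. Of 8 Sox genes 5 were higher and 1 lower (median 1.5). The comparison with genes of the same level gave 4 higher and 1 lower (median 1.34). Sox4 was at 1.47 FPKM in the control, 41.6 FPKM at 0 days, 24.6 FPKM at 6 days and 17.0 FPKM at 10 days. Its close relative Sox11 (1.19 and 12.4 FPKM), the chondrocyte and crest factor Sox9 (0.0380 and 5.32 FPKM), Sox7 (5.11 and 19.6 FPKM) and Sox10 (1.26 higher) followed, and Sox15, a Sox gene of stem cells, was lower (21 and 1.83 FPKM). The difference at Sox9 rests on a control level under that of 3 fragments on 1 kb. Sox9 passed the filter only through the 0 days library. Of 8 GATA, T-box and Hand list genes 5 were higher, with the endoderm factors Gata6 (3.92 and 16.8 FPKM) and Gata4 (6.53 and 17.7 FPKM), and Otx2, a forebrain and epiblast factor, was lower (5.89 and 0.447 FPKM). Tbx2 and Lhx1, also higher in this list, passed the filter only through the 0 days library. Against genes of the same level, 4 of the list were higher and 1 lower (median 1.07). Among 20 genes of the list of Pax, Zic, Pou and related factors 10 were higher and 2 lower. Less genes of the same level, 7 were higher and 2 lower. That list also holds Meis1 and Pou5f1, which belong to the families set aside. Its other members included Dlx3 (2.90 higher), Snai2 (0.259 and 1.97 FPKM) and Zic2 (1.33 and 4.31 FPKM). Zinc finger genes named Zfp were mostly within 2-fold: of 144 tested, 11 were higher and 9 lower, with Zfp503 the highest gain (0.0196 and 8.39 FPKM) and Zfp57, which protects imprints, the largest loss (362 and 45.3 FPKM).

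Antigen presentation genes were higher almost throughout. MHC class I molecules display peptides that the proteasome cuts, the TAP transporter pumps into the endoplasmic reticulum and aminopeptidases trim, and embryonic stem cells are known to hold this machinery at a low level. Of the 42 listed genes 27 were tested, 19 were higher and none lower (median 1.85). Upper-quartile scaling gave 21 higher, and 17 were higher less genes of the same level (median 1.77). Psmb8, Tap2, Erap1 and H2-Q7, among others, passed the filter only through the 0 days library, which favours a call of higher. With no filter on low values the median was 0.81 over the 42 genes. Among the genes under 1 FPKM in both libraries was Ciita, the master regulator of class II genes, listed at 0 in both.

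The peptide supply genes lie side by side on chromosome 17. Psmb8, an immunoproteasome subunit (chr17:34197721-34201454), was at 0.0337 FPKM in the control, 10.6 FPKM at 0 days, 1.87 FPKM at 6 days and 3.87 FPKM at 10 days. Tap2 was at 0.450, 9.20, 1.71 and 4.86 FPKM, and Tap1 at 2.49, 10.4, 7.20 and 13.3 FPKM. Psmb8 and Tap2 stood highest at 0 days, and Tap1 at 10 days. Erap1, the trimming aminopeptidase on chromosome 13, followed the first pattern at 0.408, 5.11, 1.66 and 1.56 FPKM. Psmb9, a partner subunit of Psmb8, missed 2-fold narrowly (2.58 and 6.05 FPKM; 0.98). The proteasome activator genes Psme1 and Psme2, counted in the proteasome list, were at 81.9 and 160 FPKM and at 83.9 and 188 FPKM.

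Of the class I genes, H2-K1 was at 10.5 FPKM in the control, 68.9 FPKM at 0 days, 62.2 FPKM at 6 days and 187 FPKM at 10 days. H2-D1 was at 8.43, 32.9, 44.5 and 107 FPKM, so that both classical genes stood highest at 10 days. H2-Q4, whose promoter is printed above, was at 1.46, 23.6, 12.3 and 26.2 FPKM. H2-Q7 was at 0.255, 9.73, 1.92 and 2.94 FPKM, and H2-Bl at 2.11, 35.9, 7.92 and 10.0 FPKM. Raet1a, which encodes a ligand of the natural killer cell receptor NKG2D, was at 4.42, 71.3, 6.14 and 5.04 FPKM. The last 3 were high at 0 days and several-fold lower later. The H2-Q, H2-T, H2-K and H2-D genes and the Raet1 family are near copies whose shared reads a model has to split, so the level of each single gene is uncertain. The class II gene H2-Ab1 was at 0.533 and 7.51 FPKM, Cd74, its chaperone, at 1.25 and 2.44 FPKM, and the leukocyte gene Ptprc at 0.0284 and 0.00650 FPKM.

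**Figure D3:**
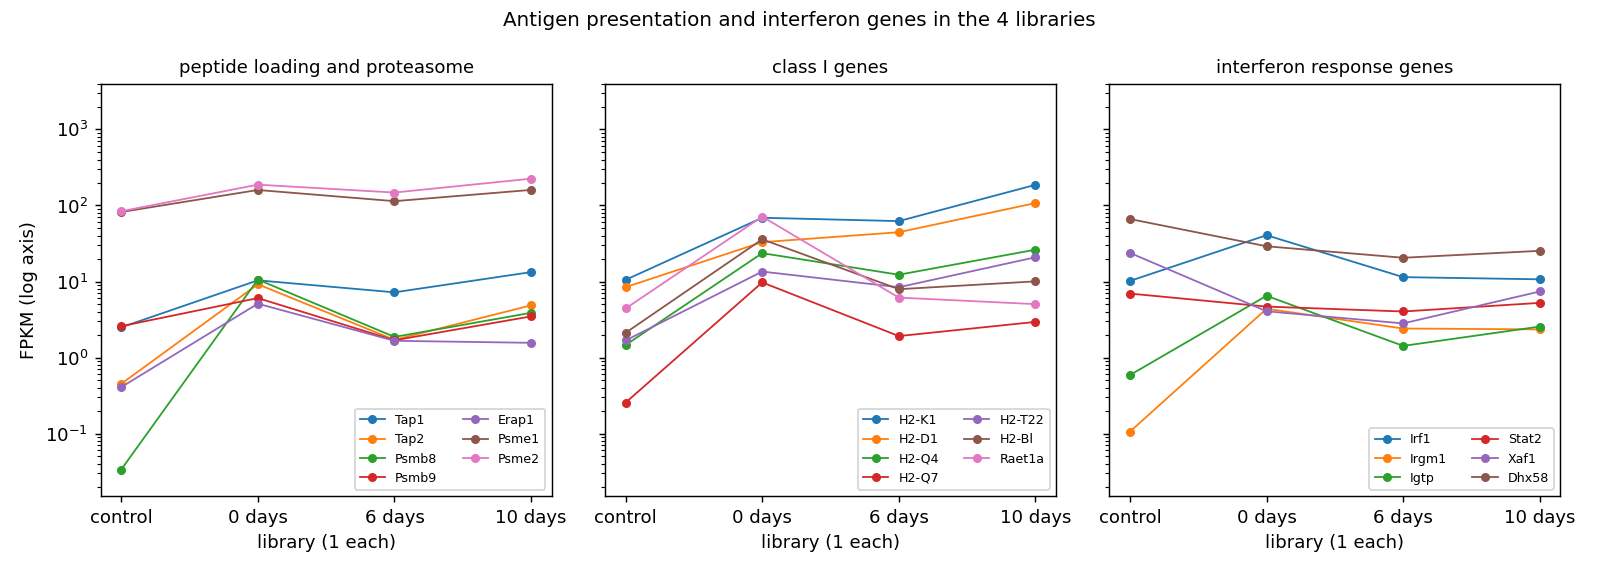
FPKM on a log axis in the 4 libraries for peptide supply genes (left), class I and related genes (middle) and interferon response genes (right). Psmb8, Tap2, Erap1, H2-Q7, H2-Bl and Raet1a have their highest value at 0 days; Xaf1 and Dhx58 are lower at 0 days than in the control.

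Interferon response genes, many of which raise MHC genes in other cells, were mixed. Of 28 tested genes 10 were higher and 2 lower (median 0.40). Irf1, a transcription factor of class I and Tap promoters, was at 10.2 FPKM in the control, 40.6 FPKM at 0 days, 11.4 FPKM at 6 days and 10.7 FPKM at 10 days. The GTPase genes Irgm1 (0.106 and 4.38 FPKM), Igtp (0.588 and 6.49 FPKM) and Irgm2 (0.340 and 3.87 FPKM) were higher, and so were the interferon gamma receptor genes Ifngr1 (1.83 and 6.66 FPKM) and Ifngr2 (2.51 and 6.57 FPKM). Irf1 was near the control again later, while the receptors stayed higher (Ifngr2 at 26.6 FPKM at 10 days). Ifi27 was listed at 0 in the control and at 12.7 FPKM at 0 days. Some transducers of the interferon signal were within 2-fold of the control: Stat2 was at 6.94 and 4.68 FPKM and Irf9 at 18.7 and 19.7 FPKM. Xaf1 (23.8 and 4.06 FPKM) and the RNA sensor regulator Dhx58 (66.3 and 29.1 FPKM) were lower, and Ifng was listed at 0 in all 4 libraries.

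Surface proteins of the Ly6 family, small proteins held by a lipid anchor, were lower: 6 of 9, with 2 higher. Ly6a, known as the stem cell antigen Sca-1, was at 34.7 FPKM in the control, 0.501 FPKM at 0 days, 5.28 FPKM at 6 days and 15.6 FPKM at 10 days. Ly6g6e was at 12.6 and 0.122 FPKM, Ly6e at 84.4 and 30.8 FPKM, and Ly6c1 at 7.91 FPKM in the control and listed at 0 at 0 days. Ly6k (0.856 and 8.47 FPKM) and Psca (1.43 and 5.57 FPKM) were the exceptions. Ly6 genes are similar in sequence, so reads may be shared.

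The extracellular matrix is the mesh of collagens and linker proteins between cells. Of 16 tested interstitial matrix genes 12 were higher and none lower (median 1.54). Less genes of the same level, 10 were higher and 1 lower (median 1.68). The remaining genes of the 43 listed stayed under 1 FPKM in both libraries, and with them included the median was 0.18. Efemp1, Col6a2 and Col6a1, among others, passed the filter only through the 0 days library, which favours a call of higher. Col6a2 and Col6a1, chains of beaded filament collagen, were at 0.111 and 4.97 FPKM and at 0.0788 and 3.55 FPKM. The cartilage collagen gene Col2a1 was at 2.19 FPKM in the control, 16 FPKM at 0 days, 10.9 FPKM at 6 days and 6.00 FPKM at 10 days. Fbln1, a fibulin, was at 10.7, 47.0, 71.2 and 110 FPKM, and the elastic fibre genes Fbn2, Mfap4 and Efemp1 were higher by 1.98, 2.08 and 2.76. Col2a1 was highest at 0 days and Fbln1 at 10 days. The list also holds enzymes that modify collagen, and of these the prolyl hydroxylases P4ha2 (14.2 and 45.3 FPKM) and P4ha1 (24.3 and 56.6 FPKM) and the lysyl oxidase Loxl2 (12.1 and 35.2 FPKM) were higher, while Lox was under 1 FPKM in both libraries. Of 11 basement membrane genes 2 were higher: Lamb1 (1.32 higher) and Smoc1 (1.25 and 4.48 FPKM). Lama1 was at 21.4 and 22.2 FPKM, Fn1 at 41.8 and 46.8 FPKM, and Sparc at 133 and 259 FPKM. Of 16 proteoglycan genes 5 were higher, led by syndecan 2 (Sdc2, 1.66 and 14.6 FPKM).

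Epithelial genes had large differences in both directions. Of 10 keratins 4 were higher and 3 lower, and their median of -0.01 turned positive under both other scalings (0.09 and 0.22). Krt17 was at 45.3 FPKM in the control, 0.463 FPKM at 0 days, 5.41 FPKM at 6 days and 4.67 FPKM at 10 days, and Krt42 at 37.4, 0.405, 2.56 and 2.45 FPKM. Both neighbours on chromosome 11 were lowest at 0 days. Krt18, a keratin of simple epithelia, was at 12.8 and 120 FPKM, while its partner Krt8 was at 93.7 and 102 FPKM. In the junction list 6 of 20 genes were higher and 2 lower. The claudin gene Cldn6 (16.8 and 57.2 FPKM), F11r (13.3 and 42.8 FPKM) and occludin (Ocln, 0.601 and 3.36 FPKM) were higher. Jam2, a junctional adhesion molecule also on the pluripotency list set aside, was lower at 54.8 and 2.47 FPKM. Among cadherins and desmosome genes, the plaque protein gene Dsp (3.80 and 29.4 FPKM), Dsc2 (0.321 and 6.30 FPKM) and N-cadherin (Cdh2, 0.219 and 4.27 FPKM) were higher. Dsg2 (23.6 and 6.08 FPKM) and plakoglobin (Jup, 32.5 and 9.46 FPKM) were lower. Of 8 integrin genes Itgb7 alone differed 2-fold (31.9 and 3.08 FPKM).

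Transcripts of ribosome biogenesis genes were mostly lower. This programme makes ribosomal RNA and its assembly factors and is driven by MYC in growing cells. Of 37 tested genes 27 were lower and none higher (median -1.24). Bop1, an assembly factor of the large subunit, was at 114 FPKM in the control, 26.2 FPKM at 0 days, 32.5 FPKM at 6 days and 22.9 FPKM at 10 days. Heatr1 was at 28.6, 7.02, 8.55 and 3.59 FPKM, and nucleophosmin (Npm1), a very abundant nucleolar protein, at 3027, 1398, 1603 and 1093 FPKM. All 3 stayed low in every ATRA library. Nhp2 (335 and 95.1 FPKM), nucleolin (Ncl, 339 and 139 FPKM), and Imp4 (37.6 and 10.9 FPKM) were also lower. Myc was at 21.5, 9.55, 13.1 and 18.1 FPKM, its relative Mycn missed 2-fold (-0.88), Max was at -0.28, and Mxd3, a MYC antagonist that the list also holds, was lower (-1.69). Under upper-quartile scaling 18 of the 37 were lower (median -0.99), and 17 were lower after taking off the median of genes of the same level (median -0.97).

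**Figure D4:**
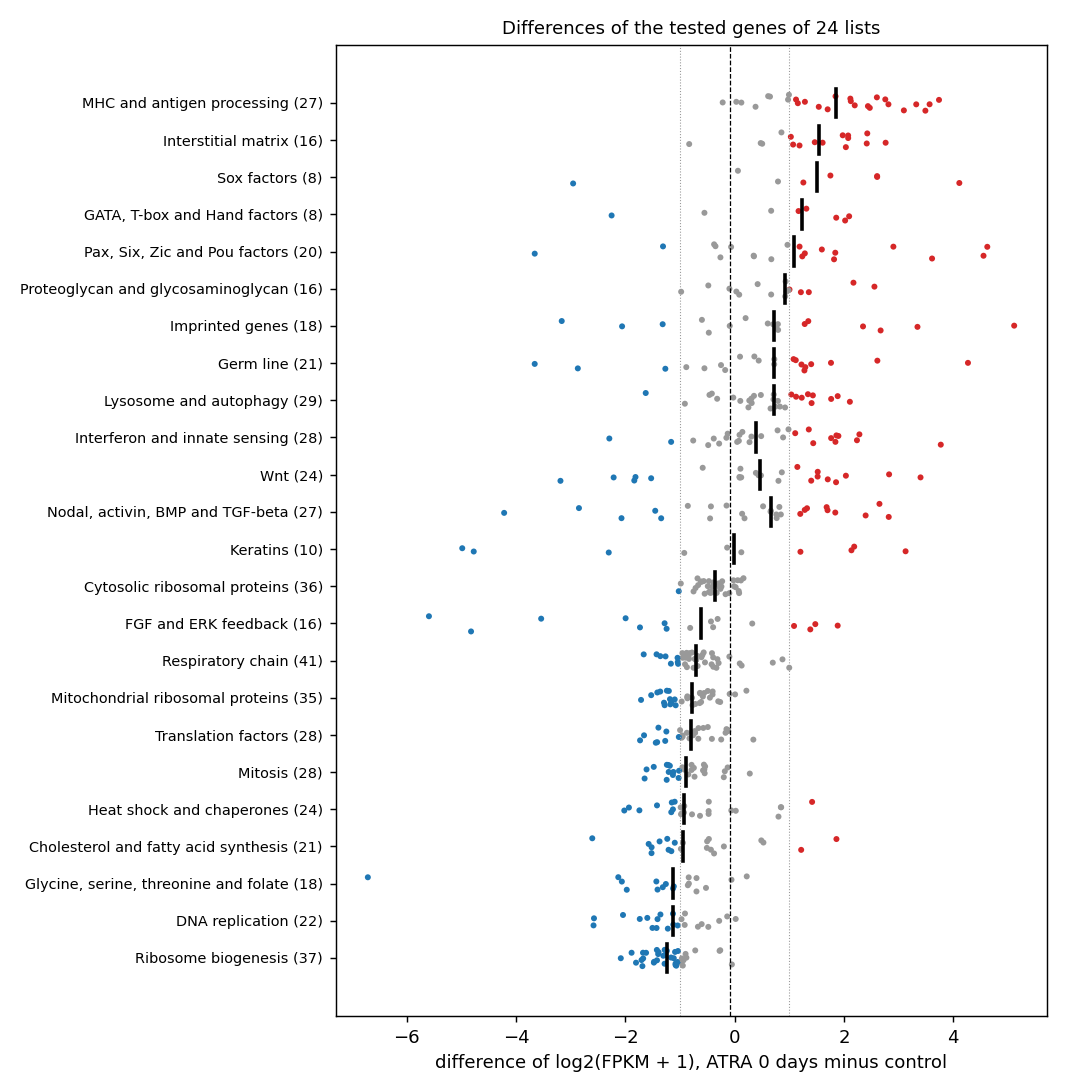
Differences of log2(FPKM + 1), 0 days minus control, for each tested gene (points; red 2-fold higher, blue 2-fold lower) of 24 lists, with the median of the list (bar) and of all tested genes (dashed line, -0.09). Antigen presentation has a median of 1.85 and ribosome biogenesis one of -1.24, and cytosolic ribosomal proteins form a narrow band around -0.36.

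Other parts of the protein synthesis machinery were closer to the median of all genes. Cytosolic ribosomal protein genes, with 36 tested, had 1 lower gene, the paralog Rpl39l (13.3 and 6.04 FPKM), and a median of -0.36 that became -0.10 under upper-quartile scaling. Of 35 mitochondrial ribosomal protein genes 13 were lower (median -0.78), among them Mrpl36 (68.1 and 20.1 FPKM) and Mrpl15 (76.6 and 25.9 FPKM). Of 28 translation factor genes 8 were lower (median -0.79), with Eif5a at 979 FPKM in the control, 294 FPKM at 0 days, 526 FPKM at 6 days and 515 FPKM at 10 days. These 2 lists lay near abundant genes in general: less the median of genes of the same level, their medians were -0.35 and -0.34. For the respiratory chain (8 of 41 lower; median -0.71), proteasome (5 of 25 lower, 2 higher; median -0.78) and splicing genes (4 of 36 lower, 1 higher; median -0.72) they were -0.14, -0.14 and -0.15. Under upper-quartile scaling the respiratory chain had 4 lower and 2 higher genes, the proteasome 1 lower and 4 higher, and splicing 0 lower and 1 higher, and under median-ratio scaling the proteasome had 2 lower and 4 higher. In the deposited values the 2 higher genes of the proteasome list were Psmb8 and Psme2, which belong to antigen processing. Reference genes had a median of -0.72 and, less that of their level, -0.23.

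DNA replication and mitosis are the phases in which cells copy and divide their chromosomes. Of 22 replication genes 13 were lower and none higher (median -1.13; less genes of the same level, 8 lower and -0.76). Tk1, thymidine kinase, was at 98.5 FPKM in the control, 15.6 FPKM at 0 days, 43.9 FPKM at 6 days and 34.9 FPKM at 10 days. Mcm4 and Mcm3, subunits of the replicative helicase, were at 125 and 40.6 FPKM and at 220 and 85.2 FPKM. Of 28 mitosis genes 12 were lower (median -0.88), but 3 under upper-quartile scaling and 4 against genes of the same level. Securin (Pttg1) was at 195, 63.2, 86.9 and 104 FPKM, and Espl1, which it inhibits, at 47.4, 19.5, 10.4 and 9.97 FPKM. Cenpw was at 56.1 and 23.6 FPKM. Aurkb, a mitotic kinase, was at 46.9 and 31.6 FPKM. Ccnd3, a cyclin of the G1 phase, had a larger difference than any mitotic gene (319 and 60.1 FPKM).

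Trp53 was at 200 FPKM in the control, 56.5 FPKM at 0 days, 81.9 FPKM at 6 days and 58.9 FPKM at 10 days, yet the list of its targets had a median of 0.41, with 1 of 19 higher and 3 lower, Trp53 itself included. Cdkn1a, the target that arrests the cell cycle, was at 64.9, 122, 182 and 233 FPKM (0.90), and Mdm2 at 45.8 and 54.8 FPKM. The apoptosis gene Pmaip1 was lower, at 58.6 and 10.6 FPKM. The difference of Cdkn1a at 0 days did not reach 2-fold.

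**Figure D5:**
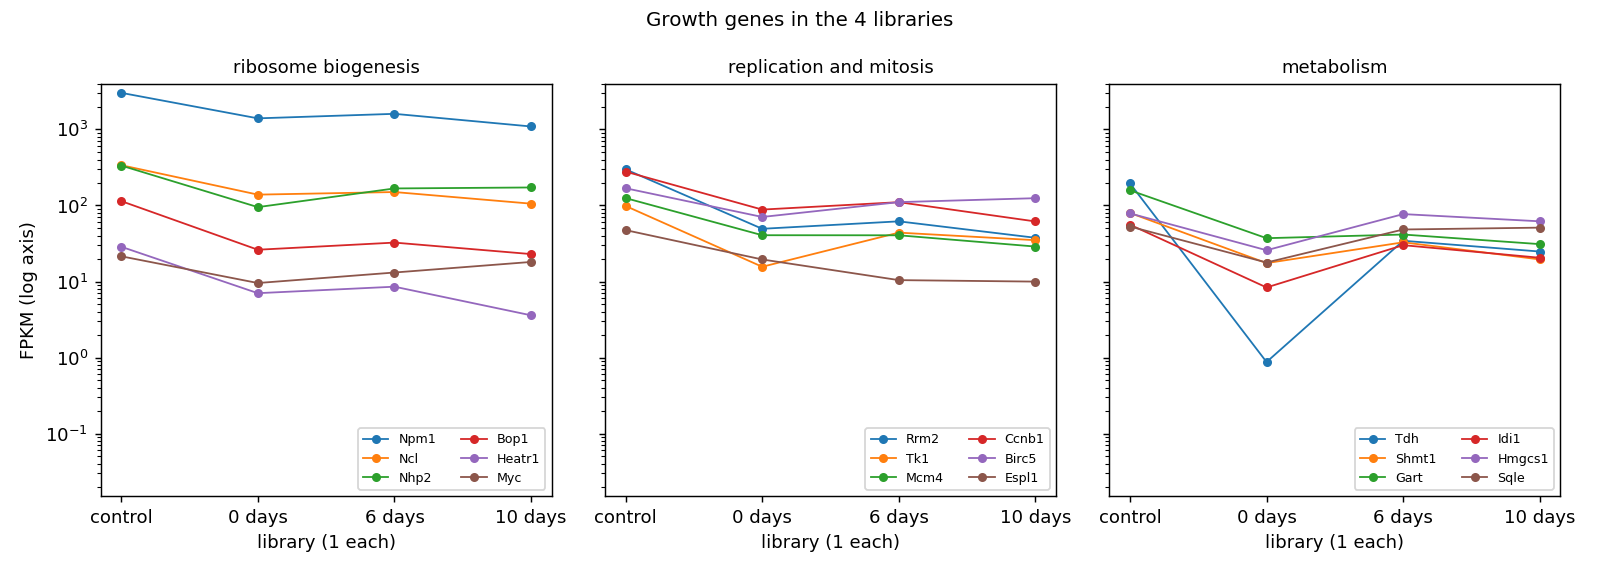
FPKM on a log axis in the 4 libraries for ribosome biogenesis genes (left), replication and mitosis genes (middle) and metabolic genes (right). Every plotted gene is lower at 0 days than in the control; Tdh stands at 195 and 0.873 FPKM, and Hmgcs1 and Sqle are back near their control level at 6 days.

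One-carbon metabolism, which supplies methyl groups and nucleotides, was lower: 10 of 18 genes, none higher (median -1.12). Tdh feeds threonine into glycine in mouse stem cells, and is also on the pluripotency list set aside. It was at 195 FPKM in the control, 0.873 FPKM at 0 days, 34.3 FPKM at 6 days and 24.8 FPKM at 10 days. Shmt1, which turns serine into glycine, was at 79.8, 17.5, 32.8 and 19.5 FPKM, and the purine synthesis genes Gart and Atic at 158 and 37.1 FPKM and at 121 and 29.9 FPKM. Mthfd1, a folate enzyme, was at 137 and 50.1 FPKM. Less genes of the same level the median was -0.87.

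Sterol and fatty acid synthesis genes, which supply membranes, had 9 of 21 lower and 2 higher (median -0.95). Both upper-quartile scaling and the comparison with genes of the same level gave 5 lower (medians -0.69 and -0.73). Idi1 was at 55.9 FPKM in the control, 8.35 FPKM at 0 days, 30 FPKM at 6 days and 20.5 FPKM at 10 days. Hmgcs1 was at 78.7, 25.8, 77 and 61.9 FPKM, and squalene epoxidase (Sqle) at 52.9, 17.8, 48.3 and 51.1 FPKM, both close to the control again at 6 days. Lpin2 (1.09 and 6.61 FPKM) and Elovl2 (2.12 and 6.25 FPKM) were the higher genes. The chaperone list had 8 of 24 lower and 1 higher (median -0.93; less genes of the same level, -0.29), but 4 lower and 4 higher under upper-quartile scaling. Its largest difference was Hsp90aa1, the inducible HSP90, at 1909, 470, 625 and 412 FPKM, while Hspa1a was higher at 1.40 and 5.40 FPKM. Glycolysis and hypoxia genes did not share this direction, with 6 of 24 higher and 2 lower. Ddit4 (58.2 and 186 FPKM) and Vegfa (30.9 and 80.5 FPKM) were higher, Pfkp was lower (-1.74), and Hif1a was at 25.7 and 30.3 FPKM.

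Lysosomes break down what cells take in or turn over. Of 29 lysosomal genes 9 were higher and 1 lower (median 0.71, and 0.72 less genes of the same level). The protease gene Ctsb was at 41.2 FPKM in the control, 155 FPKM at 0 days, 117 FPKM at 6 days and 128 FPKM at 10 days, and the membrane protein gene Cd63 at 121, 329, 831 and 1207 FPKM. Psap (135 and 279 FPKM) and Neu1 (6.87 and 19.9 FPKM) were among the others. Tfeb, the transcription factor known for lysosomal genes, was the lower member, at 15.0 and 4.17 FPKM. In the redox list Gpx2 (96.3 and 3.03 FPKM) and Sod2 (52.9 and 11.2 FPKM) were lower, and Gpx3 (10.7 and 96.4 FPKM) and Gpx8 (2.82 and 26.4 FPKM) higher. Of 97 solute carriers 10 were higher and 10 lower; ferroportin (Slc40a1) was at 0.171 and 4.72 FPKM, and the transferrin receptor gene Tfrc, of the iron list, at 107 and 32.1 FPKM.

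Imprinted genes, expressed from 1 parental copy, had 6 of 18 higher and 3 lower (median 0.73). Meg3, a noncoding RNA of the Dlk1 domain, was at 39.2 FPKM in the control and 204, 189 and 297 FPKM in the ATRA libraries. Airn, the antisense RNA of Igf2r, was at 0.0358, 9.52, 13.9 and 26.3 FPKM, and Igf2r at 15.2 and 25.4 FPKM. No source states how counting treated strand, so reads of these overlapping genes cannot be told apart. Cobl (25.6 and 1.96 FPKM) and Adam23 (44.8 and 10.0 FPKM) were lower. Of 21 germ line genes 9 were higher and 3 lower (median 0.72). Less genes of the same level, 7 were higher and 4 lower (median 0.38). Rec8, a meiotic cohesin, stood highest at 0 days: 3.57 FPKM in the control, 87.1 FPKM at 0 days, 11.5 FPKM at 6 days and 14.1 FPKM at 10 days. Dazl (2.80, 22.2, 1.18 and 0.474 FPKM) and Mael (4.18, 12.7, 3.20 and 1.86 FPKM) also stood highest at 0 days, but were under the control later. Sycp3, of the synaptonemal complex, was at 8.61 and 19.9 FPKM, and the meiotic repair gene Msh5 was lower (6.62 and 2.16 FPKM).

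Cell type markers were checked against the label of the samples. All 8 tested mesenchyme markers were higher (of 17 in the table), with a summed level of 39.3 and 180 FPKM. Most of that sum came from Ctgf (26.3 and 104 FPKM), also in the immediate early list, and Fbln1 (10.7 and 47.0 FPKM). Of the 8, Meox1, Col6a1, Col6a2, Pdgfrb and Twist1 were under 1 FPKM in the control. They passed the filter only through the 0 days library, which favours a call of higher. Dach1, Nr2f1, Cdh2, Lhx1, Foxc1, Apoa2, Apob, Krt7 and Cd34, among others, in the marker lists below did so too. The higher streak markers were Hoxb1, Meox1, Cdx1, Lhx1 and Foxc1, all under 1 FPKM in the control. Meox1, a factor of somites, was at 0.175 and 7.85 FPKM, but Lum was listed at 0 in both libraries and Dcn, Prrx1 and Col3a1 stayed under 1 FPKM. For neural progenitors 5 of 7 tested markers were higher (summed level 9.68 and 95.8 FPKM), and Olig2 and Pax3 were under 1 FPKM. Of 8 neuronal markers 2 were higher and 1 lower (27.9 and 53 FPKM), and their median of 0.29 was -0.06 less genes of the same level. For primitive streak and mesoderm 5 of 8 tested markers were higher (3.47 and 54.1 FPKM). Without Hoxb1 and Cdx1, which belong to the families set aside, 3 of 6 were higher and the sums were 3.01 and 17.7 FPKM, with the defining genes T and Mixl1 under 1 FPKM and Gsc listed at 0. Endoderm markers had 7 of 14 higher and 1 lower (223 and 403 FPKM). Sparc, given above with the matrix genes, made up most of both sums and did not reach 2-fold. In the trophoblast list 2 of 3 tested genes were higher, both keratins, and Tpbpb and 6 others of its 21 genes were listed at 0 in both. Cardiac and muscle markers had 1 of 4 lower, and of blood and endothelial markers Cd34 was higher (0.608 and 2.97 FPKM) and Pecam1, also a surface protein of stem cells, lower (21.1 and 1.37 FPKM). The marker lists share members with lists above: Col1a1, Col6a1, Col6a2 and Fbln1 are also in the matrix list, Sox4, Sox11, Sox7 and Sox17 in the Sox list, and Gata4, Gata6 and Lhx1, among others, in the GATA list. These marker counts are therefore not separate from the matrix, Sox and GATA counts.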

How the data were processed

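The deposited values are FPKM, per the file headers, 1 column per library; 10201 rows held 9997 symbols, and rows of the same symbol (177 symbols) were summed. The authors used Trimmomatic, TopHat and Cufflinks with mm10, per the submitters' processing notes; no source states versions, annotation or strand. FPKM is relative to the library total, so a few abundant transcripts move all others. Differences of log2(FPKM + 1) were taken among 5500 symbols at 1 FPKM or more in either library, with no test.

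Members and 81 gene lists were chosen with earlier results of these data known. Genes were named by rule: the 30 largest rises and 30 largest falls at 5 FPKM or more, passing over predicted genes, small RNAs and the set-aside families; up to 4 leading members of each list and 2 the other way; and the namesake genes of a list. Other members named with values were chosen after their values were seen, as were the motifs CACGTG and GAAANNGAA. Promoters are from RefSeq on GRCm38.p6, with 3903 of the 5500 symbols matched; positions are from GENCODE M21. The alternatives were pseudocounts of 0.1 and 0.5, filters, scalings, a 4-fold threshold, and handling of repeated, small and predicted symbols. The median of genes of the same level was subtracted as a further setting, chosen once values were seen. Some genes are not reported here. Scripts were tested on simulated data. Python 3.11.15, numpy 2.4.6, pandas 2.3.3 and matplotlib 3.10.9 were used.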

Additional observations from a re-analysis of the deposited data

How the results depend on the processing

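No paired analysis was possible because each group has 1 library. The 720 higher genes became 445 with a filter at 5 FPKM and 192 at a 4-fold threshold, and the 752 lower genes 490 under upper-quartile scaling and 153 at a 4-fold threshold; under the other settings the counts stayed within 1.5 times, between 658 and 953 higher and between 623 and 914 lower genes. Upper-quartile scaling moved the median gene by 0.23 and median-ratio scaling by 0.09. The share of higher genes among called genes was 48.9%, 56.8% with median-ratio scaling and 66% with upper-quartile scaling, so the balance of gains and losses depends on the scaling. All 337 genes named for the size of their difference kept their sign under both scalings and both pseudocounts, and 13 and 23 of them fell short of 2-fold under median-ratio and upper-quartile scaling. Of 78 list medians 6 and 9 took the opposite sign under these scalings, keratins, cadherins, glutathione genes and G1 genes among them. With no filter on low values the median of the antigen processing list was 0.81 over 42 genes and that of interstitial matrix 0.18 over 43, since genes near 0 in both libraries enter. Depth limits genes near 0.122 FPKM, and biological spread is unknown with 1 library a side.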

Other observations

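Neighbouring genes that differed the same way were listed after the values were seen, as a description. There were 13 runs of 4 or more neighbouring tested genes called in 1 direction. On chromosome 17, 3 runs lay in the MHC: Tap1 to H2-Ab1 (4 genes), H2-D1 to H2-Q7 (5 genes) and H2-T23 to H2-T10 (5 genes). On chromosome 11, 5 higher genes ran from Irf1 to P4ha2, and 6 from Tmem92 to Pdk2, with Col1a1 among them. On chromosome 12, 6 higher genes in a row were predicted genes that share much sequence, so their reads cannot be assigned with confidence. Lower runs were Chchd10 to Gm5134 on chromosome 10, Nhp2 to D930048N14Rik on chromosome 11, and Sult4a1 to Parvb on chromosome 15, with 4 genes each.

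Grouped by symbol stem, 65 families had 8 or more tested genes. Beside families described above, nucleoporins named Nup, which form the nuclear pore, had 5 of 8 genes lower (median -1.07), RNA helicases named Dhx 4 of 8 (-0.80) and WD repeat genes named Wdr 8 of 24 (-0.67). They were picked from the 65 for their high shares of lower genes, against 13.7% over all tested genes. Under upper-quartile scaling 2 Nup, 1 Dhx and 3 Wdr genes were lower. Trim genes had none called among 14, and Med genes, subunits of Mediator, none among 16.

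Among the largest losses outside any list were Sept1 (217 FPKM in the control, 3.39 FPKM at 0 days), a septin of the cell cortex, Lgals3 (49.8 and 2.89 FPKM), which encodes galectin 3, Morc1 (28.8 and 1.31 FPKM), a repressor of transposons in germ cells, and Ckb, brain creatine kinase (59.6 and 5.40 FPKM). Lgals3 and Ckb were back at 53.2 and 61.9 FPKM at 10 days. Among the largest gains outside any list were clusterin (Clu, 19 and 288 FPKM), the collagen receptor gene Mrc2 (0.368 and 31.5 FPKM), the myelin gene Pmp22 (0.275 and 15.9 FPKM) and Tff3, a mucosal peptide listed at 0 in the control and at 21 FPKM at 0 days.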
